A study of Homo sapiens with 4 samples.

Results

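The cytosolic ribosomal protein genes encode the proteins of the small and large subunits of the ribosome that translates nuclear mRNAs. They were taken as the protein-coding genes of GENCODE release 44 on chromosomes 1 to 22 and X whose symbols are RPL or RPS with a number and an optional final letter, L1 or P, together with RPLP0, RPLP1, RPLP2 and RPSA. This rule gave 84 genes (52 RPL and 32 RPS symbols) of 19970 protein-coding genes, on 21 chromosomes, and it used no measured value. The study applied ATAC-seq, in which Tn5 transposase cuts and tags open chromatin, to pancreatic progenitors made from the human embryonic stem cell line MEL1 INS GFP/W, which carries a GFP reporter at the insulin gene and which the labels call MEL1. All cells grew in the medium EF6, a DMEM with B27, EGF, bFGF and the TGF-β receptor inhibitor 616452. There were 2 libraries of cells given the solvent DMSO, whose exposure time the labels do not give apart from that of the drug, and 2 libraries of cells given I-BET151 at 1 μM for 7 days. All 4 libraries come from 1 line, and no label says whether replicates were separate cultures, so p-values measure only the spread between these libraries.

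Ribosomal protein genes are transcribed at high levels in every dividing cell, and a new ribosome needs their products in matched amounts. Many of their promoters begin transcription at a C inside a run of pyrimidines, and the same run at the 5′ end of the mRNA makes its translation sensitive to growth signals. I-BET151 blocks the bromodomains of the BET family of proteins, which bind acetylated histones at active promoters and enhancers.

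Each library was available as a list of peaks with a fold enrichment, the read pileup at the summit over the local background of the same library. The lists held 82568 and 38295 peaks with DMSO and 84995 and 111324 with I-BET151, in replicate order. The read totals recovered from the background were 38.7 and 36.6 M with DMSO and 12.5 and 16.0 M with I-BET151, so depth and treatment cannot be told apart. The median fold enrichment over the 25627 merged regions called in all 4 lists was 5.16 and 4.60 with DMSO and 8.33 and 10.0 with I-BET151. For this reason the measure compared between treatments was a region's place, its percentile by fold enrichment among those 25627 regions within its own library. Of 10 pancreatic progenitor genes, 6 had a start region in every list, SOX9 and NKX6-1 among them, and 7, 6, 9 and 9 had one in the DMSO and I-BET151 lists in turn; PDX1, which defines this cell type, was called in the 2 I-BET151 lists alone. The start regions of 1 of 5 pluripotency genes, 0 of 5 endocrine genes, 3 of 5 liver genes, 3 of 5 mesenchyme genes and 0 of 5 blood genes were called in all 4 lists. The part of other cell types in the results was not tested.

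The promoters shared a feature that the choice of genes did not use. At the start of the Ensembl canonical transcript, the first base was C in 63 of 84 genes (75%), against 10.7% of all protein-coding genes. A run of at least 5 pyrimidines covered that base in 62 genes (73.8%), against 7.84% of all protein-coding genes and 7.69% of the 78 mitochondrial ribosomal protein genes, and its median length over the 84 genes was 11 bases. The sequences below are those of the gene whose place fell (RPS12), of 2 with large upward shifts (RPL22L1 and RPS10), of the gene whose start was called in both I-BET151 lists and not with DMSO (RPL7A), of 3 promoters that mark the top and bottom of the range (RPS6, RPLP0 and RPL12), and of a paralog with little signal (RPL10L). Each runs 5′ to 3′ in the sense of the gene, from 90 bases before the start to 20 bases from the start on, in hg38, and the capitals mark the pyrimidine run over the first transcribed base.
RPS12, chr6:132814479-132814588, plus strand: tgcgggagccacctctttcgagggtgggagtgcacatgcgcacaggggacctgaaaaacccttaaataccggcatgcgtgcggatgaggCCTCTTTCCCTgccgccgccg
RPL22L1, chr3:170870176-170870285, minus strand: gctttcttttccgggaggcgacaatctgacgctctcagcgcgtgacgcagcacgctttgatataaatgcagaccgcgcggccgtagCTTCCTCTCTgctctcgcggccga
RPS10, chr6:34426050-34426159, minus strand: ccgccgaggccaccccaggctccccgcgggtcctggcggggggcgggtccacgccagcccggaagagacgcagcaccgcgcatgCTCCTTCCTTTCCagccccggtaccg
RPL7A, chr9:133348128-133348237, plus strand: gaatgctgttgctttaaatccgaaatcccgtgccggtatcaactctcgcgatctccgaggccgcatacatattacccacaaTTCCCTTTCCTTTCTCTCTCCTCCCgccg
RPS6, chr9:19380217-19380326, minus strand: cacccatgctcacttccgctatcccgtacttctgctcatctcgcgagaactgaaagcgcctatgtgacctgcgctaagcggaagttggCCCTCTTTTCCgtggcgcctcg
RPLP0, chr12:120201092-120201201, minus strand: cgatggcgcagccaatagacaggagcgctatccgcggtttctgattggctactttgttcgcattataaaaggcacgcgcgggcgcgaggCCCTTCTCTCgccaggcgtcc
RPL12, chr9:127451387-127451496, minus strand: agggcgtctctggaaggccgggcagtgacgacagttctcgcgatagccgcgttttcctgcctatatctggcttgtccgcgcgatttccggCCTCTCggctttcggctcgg
RPL10L, chr14:46651762-46651871, minus strand: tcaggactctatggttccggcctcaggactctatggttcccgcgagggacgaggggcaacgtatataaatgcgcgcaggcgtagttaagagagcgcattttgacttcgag
The run is 25 bases long in RPL7A, the longest among the 84, and 10 to 13 bases in RPS12, RPL22L1, RPS10, RPS6 and RPLP0. In RPL12 it is 6 bases long. RPL10L has none over the annotated start.

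Short motifs were searched as exact letters on both strands of 300 bases, 250 before and 50 after the canonical start, and none of the 8 motifs contains another. TCTCGCGA, the element bound by BANP, was in 15 promoters (17.9%, against 1.72% of all protein-coding promoters). Among the sequences shown it lies in those of RPL7A, RPS6 and RPL12. The ETS core CCGGAAG was in 35.7% (all genes 14.1%) and the YY1 element GATGGCGG in 11.9% (all genes 3.52%). The shares of the mitochondrial ribosomal protein genes were 41.0% for the ETS core, 16.7% for YY1 and 2.56% for the BANP element. The SP1 box GGGCGG (59.5% against 61.3%), CCAAT (32.1% against 36.0%), the E-box CACGTG (7.14% against 8.75%), TATAAA (9.52% against 9.73%) and the NRF1 element GCATGCGC (7.14% against 4.25%) were nearer to all genes. Median GC content was 60%, against 63.7%, and the ratio of observed to expected CpG was 0.91, against 0.78. Among genes called in all 4 lists, the SP1 box was in 58.6% (all such genes 73.9%) and the E-box in 4.29% (10.2%). CCAAT was there in 31.4% (38.6%), TATAAA in 7.14% (5.05%) and the NRF1 element in 7.14% (5.99%). The ETS core was in 35.7% (20.6%), YY1 in 14.3% (4.96%) and the BANP element in 17.1% (2.75%). Their median GC content was 60% (66%) and their CpG ratio 0.92 (0.86). Of the 7 paralogs only RPL22L1 had a pyrimidine run, and none held the BANP or YY1 letters.

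Most of these genes had a called open region at the start in every library. A region lay within 3 kb of the gene start for 81 of 84 genes, and for 70 (83.3%) the start region, the one covering or nearest to the gene start, was called in all 4 lists, against 51.9% of all protein-coding genes. The share was 64 of 78 among mitochondrial ribosomal protein genes. In 68 of the 70 the region covered the gene start. Start regions were called in all 4 lists for 30 of 31 small-subunit genes, 34 of 43 large-subunit genes, all 3 stalk genes, whose products form the arm that recruits translation factors, and 3 of 7 paralogs. The level within each list was also high. Over all 84 genes, with 0 for a start not called, the median percentile within the list was 84.0 and 75.1 with DMSO and 85.0 and 83.6 with I-BET151, against 40.2, 19.0, 61.6 and 63.6 for all protein-coding genes. The zeros make this measure depend on the share called. Mitochondrial ribosomal protein genes had 84.6, 75.8, 88.8 and 89.7, and translation factor genes 91.2, 83.3, 87.2 and 86.6. Among start regions called in all 4 lists, the median places were 64.7, 71.8, 76.9 and 58.8. Those of all protein-coding genes were 60.3, 67.0, 66.3 and 56.9.

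The 70 start regions spanned nearly the whole range of shared regions. Their places ran from 1.49 to 97.3 in DMSO 1, from 2.84 to 96.0 in DMSO 2, from 10.1 to 97.6 in I-BET151 1 and from 5.83 to 97.9 in I-BET151 2. Of these, 35 were above the median of shared regions in every library and 15 above the 75th percentile. The matching shares over all start regions are not given here, so these counts only describe the gene set. The 5 highest by mean place were RPS6, RPL34, RPLP0, RPS13 and RPSA, and the 5 lowest were RPL12, RPL23A, RPL10A, RPL38 and RPS21. RPS6, the small-subunit protein phosphorylated by S6 kinases, had fold enrichments of 10.0 and 8.46 with DMSO and 13.7 and 15.7 with I-BET151, which put it at places 97.3, 93.6, 92.6 and 93.3. RPL34, of the large subunit, stood at 91.9, 92.2, 97.6 and 94.3, and RPS13 at 86.6, 92.7, 88.9 and 97.9. These top genes overlapped in place and their order does not exceed the spread between libraries. At the other end RPL12, which sits at the base of the stalk, had fold enrichments of 2.87 and 3.25 with DMSO and 5.92 and 6.54 with I-BET151, at places 1.49, 10.0, 20.9 and 12.3. RPL23A, which lies at the exit of the nascent chain tunnel, stood at 10.0, 11.9, 17.3 and 7.54. RPL10A, the protein of the L1 stalk, stood at 12.0, 3.90, 24.0 and 14.8, and RPL38 at 11.7, 13.5, 23.2 and 22.3. RPS21 was the least steady of the 5, at 16.2 and 2.84 with DMSO and 50.6 and 16.4 with I-BET151.

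**Figure D1:**
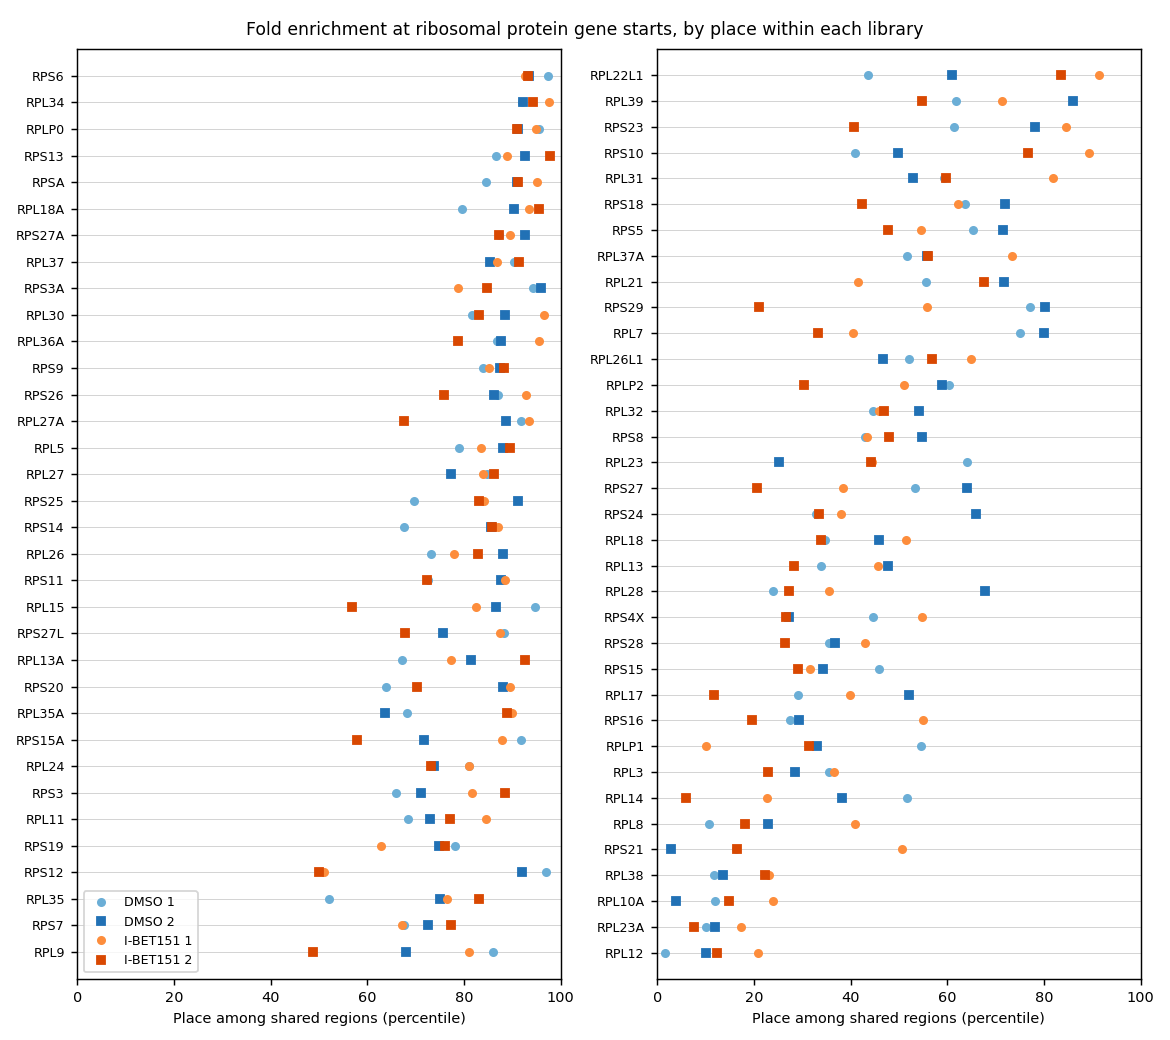
Place of the start region of 69 of the 70 genes called in all 4 lists (horizontal axis, percentile by fold enrichment among the 25627 shared regions of the same library; DMSO blue, I-BET151 orange; genes ordered by mean place, the upper part at left). RPS6 and RPL34 are above 91 in every library, RPL12 and RPL23A below 21, and RPS12 has its DMSO points at 97.1 and 92.1 and its I-BET151 points at 51.0 and 49.9.

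The called regions were narrower at the median than other start regions, and their summits lay just before the start. Their median width was 557 and 589 bp with DMSO and 637.5 and 855 bp with I-BET151, against 656, 703, 777 and 993.5 bp for the start regions of all protein-coding genes. They were wider than the median of all shared regions, which was 462, 473, 549 and 764 bp. Mitochondrial ribosomal protein genes had 591, 661, 714 and 894 bp. Summits were taken for the 75 genes called in all 4 lists at the canonical start. The summit lay at a median of -105 and -110 bp from that start with DMSO and -98 and -118 bp with I-BET151, negative values being upstream. For all protein-coding genes these distances were -78, -93, -75 and -99 bp. Between 81.3% and 90.7% of the summits were within 250 bp of the canonical start, against 73.4% to 77.9% for all protein-coding genes. The mitochondrial ribosomal protein genes had 82.1% to 94.0%. No shared region passed the limma test on width ranks (0% of 25627, 3081 at an unadjusted p under 0.05), and the smallest adjusted p of a ribosomal protein gene was 0.271.

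**Figure D2:**
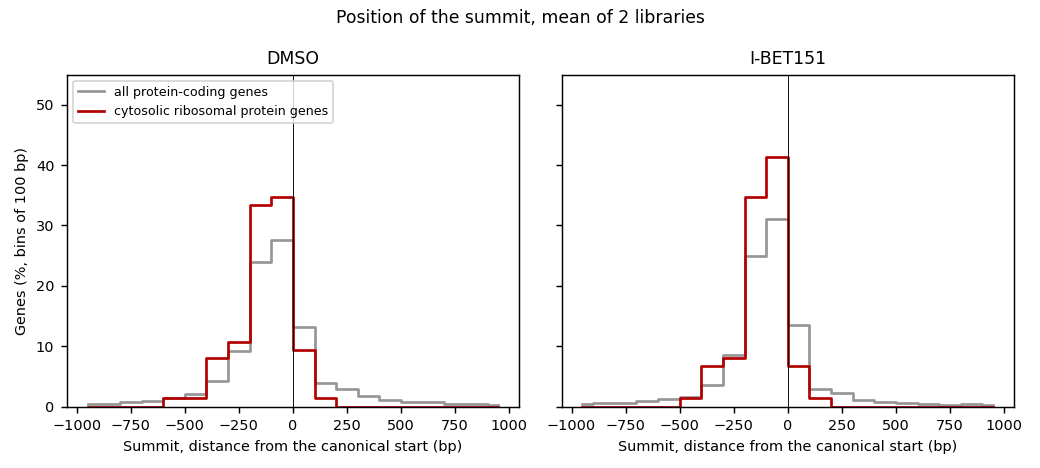
Distance of the summit from the canonical start (horizontal axis, bp, negative values upstream; mean of the 2 libraries of each treatment) as a share of genes in bins of 100 bp (vertical axis, %) for ribosomal protein genes (red) and all protein-coding genes (grey). In both treatments the red curve is concentrated within the 200 bp upstream of the start.

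The places of this gene set with I-BET151 and with DMSO differed little at the median, and 1 of the 70 regions, that of RPS12, passed the test of a change in place. Each I-BET151 library exceeded each DMSO library in fold enrichment at 68 of 70 start regions, but so it was at 97.4% of the start regions of all protein-coding genes. The median ratio of the mean fold enrichment with I-BET151 to that with DMSO was 1.83 for ribosomal protein genes, 1.76 for all start regions and 1.79 for all shared regions. By place, 18 of 70 were higher in both I-BET151 libraries (all start regions 25.3%) and 13 were lower in both (31.4%). The change in place was tested with limma on normal scores of the ranks within each library, with Benjamini-Hochberg adjustment over all 25627 regions, and is given below as a rank shift, I-BET151 minus DMSO. Of the 70 regions, 0 rose and 1 fell at an adjusted p under 0.05, and 9 were at an unadjusted p under 0.05 (1877 of the 8720 start regions of all protein-coding genes, and 6372 of all 25627 regions). Over the 8720 start regions of all protein-coding genes 2.88% rose and 0.963% fell, and over all shared regions 3.41% rose and 1.96% fell.

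The rank shifts of the 70 regions were 36 above 0 and 34 below, with a median of 0.01, quartiles of -0.29 and 0.34 and a range from -1.64 to 1.11. The median of all start regions was -0.06. Within replicate 1 the median over the 70 was 0.22, and within replicate 2 it was -0.17, where all start regions had 0.14 and -0.26. In 53 of 70 genes the shift was within 0.5 of 0. Of the 70, 11.4% were at or below -0.5, against 24.9% of all start regions. At or below 0.5 lay 87.1% of the 70 and 77.6% of all start regions. Standard errors were between 0.38 and 0.45. In this fit the smallest shift that passed among all shared regions was 1.34 in size, so a smaller shift of a single gene was not called. Some smaller shifts passed under other settings, as given below. The median shift was -0.04 in the small subunit, 0.06 in the large subunit, 0.01 in the 24 genes of the 70 that host a snoRNA gene and 0.02 in the other 46.

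**Figure D3:**
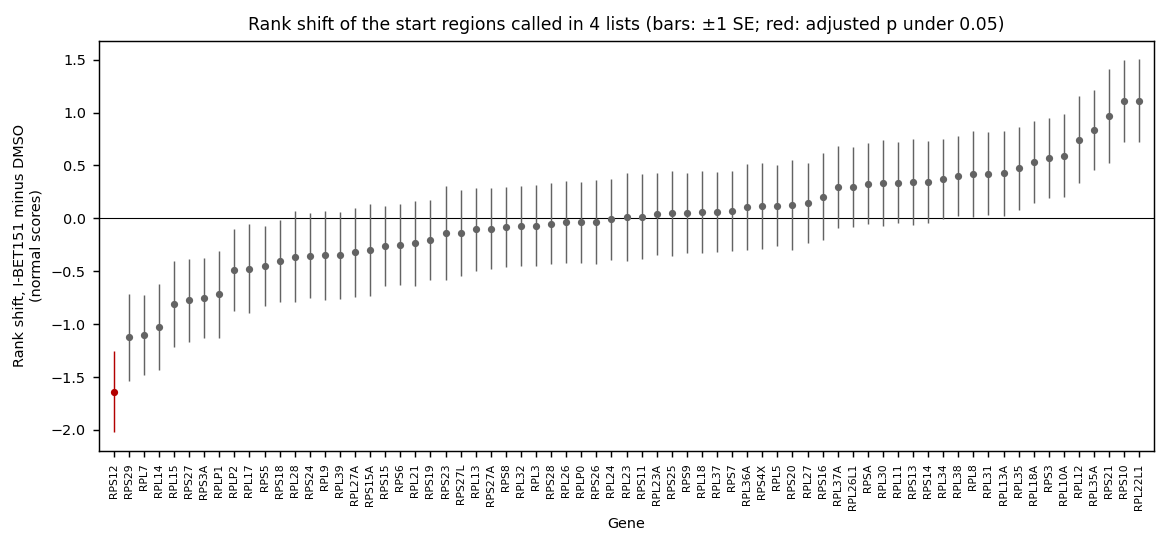
Rank shift of 69 of the 70 start regions (vertical axis, normal scores, I-BET151 minus DMSO, with bars of 1 SE from limma; genes ordered by shift). RPS12, in red at -1.64, is the 1 of the 70 past the threshold, and RPL22L1 and RPS10 lead the upper end at 1.11.

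RPS12, a small-subunit protein whose gene (ENSG00000112306) hosts 3 snoRNA genes, was the member whose place fell. Its start region, chr6:132814032-132814717 in hg38, covers the promoter and first transcribed bases shown above. The fold enrichment was 9.89 and 8.09 with DMSO and 8.41 and 10.0 with I-BET151, or 8.99 ± 1.27 against 9.21 ± 1.13 (SD, n = 2). The groups thus overlapped on the scale of the files while nearly all other regions were higher with I-BET151. The places were 97.1 and 92.1 with DMSO and 51.0 and 49.9 with I-BET151, with no overlap. Places lower in both I-BET151 libraries, by any amount, were found at 31.4% of all start regions. The summit pileups were 52 and 48 reads with DMSO and 35 and 74 with I-BET151. The rank shift was -1.64 ± 0.38 (SE; limma adjusted p = 0.0269), -1.86 within replicate 1 and -1.41 within replicate 2. It did not pass without DMSO 1 (adjusted p = 0.255) or without DMSO 2 (0.0943), nor by ranks of -log10 p (0.140). On the pileup scaled to each library's read total, where all regions had a median difference of 1.9 on the log2 scale, its value was 1.44, or -0.49 (adjusted p = 0.161) after centring.

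Below RPS12, the next shifts down were those of RPS29 and RPL7, neither of which passed. RPS29, of the small subunit, had places of 77.1 and 80.2 with DMSO and 55.9 and 21.1 with I-BET151 (shift -1.12, limma adjusted p = 0.110). That region belongs to the 5′ end of the gene record, however, and the canonical start lies 12784 bp downstream. There the places were 89.7, 93.2, 93.9 and 82.7, and the shift was -0.14. At the gene record's end it passed without I-BET151 1 (adjusted p = 0.0417). RPL7, of the large subunit, had places of 75.1 and 80.1 with DMSO and 40.5 and 33.2 with I-BET151 (shift -1.10, adjusted p = 0.0926), in a region near the start of the opposite-strand gene RDH10. With equal numbers of peaks from every list RPL7 passed (shift -1.30, limma adjusted p = 0.0423), as did RPL14 of the large subunit (-1.37, adjusted p = 0.0396), which was named after its values were seen.

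The largest shifts up, those of RPL22L1 and RPS10, did not pass either. RPL22L1, the paralog of RPL22, had fold enrichments of 4.90 and 5.06 with DMSO and 13.4 and 13.6 with I-BET151, and places of 43.6 and 61.0 against 91.5 and 83.5 (shift 1.11, limma adjusted p = 0.0969). RPS10, mutated in some families with Diamond-Blackfan anaemia, went from places of 40.8 and 49.8 to 89.4 and 76.7 (shift 1.11, adjusted p = 0.0976). In each of the 2 genes both I-BET151 libraries were above both DMSO libraries in place, as at 25.3% of all start regions. The 2 were picked for the size of their shift, so this adds nothing to the test. Both passed when only peaks with a -log10 p of at least 10 were kept (adjusted p = 0.0159 for RPL22L1 and 0.0110 for RPS10) and without I-BET151 2 (0.0420 and 0.0329), while the centred pileup gave RPS10 the opposite sign (-0.15). On that scale RPL22L1 rose (adjusted p = 0.0345) and RPS15 was the 1 gene that fell (adjusted p = 0.0427).

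The stalk genes, RPS27A and RPSA did not pass the test in either direction. RPLP0, which anchors the stalk to the ribosome, was among the most enriched promoters in every library, with fold enrichments of 9.32, 7.88, 14.4 and 15.1 and places of 95.6, 91.1, 94.9 and 91.1 (shift -0.04). Its partners were lower. RPLP1 had places of 54.5 and 33.1 with DMSO and 10.1 and 31.4 with I-BET151 (shift -0.72, limma adjusted p = 0.292), and RPLP2 had 60.4 and 58.9 against 51.2 and 30.3 (shift -0.49, adjusted p = 0.457). RPS27A, made as a fusion with ubiquitin, stood at 87.3, 92.7, 89.6 and 87.3 (shift -0.10), and RPSA, also known as the laminin receptor, at 84.6, 90.9, 95.2 and 91.1 (shift 0.33).

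The ribosomal genes FAU, RACK1 and RPL36AL, which lie outside the symbol rule, had shifts of -0.07, -0.01 and -0.21. Of 63 distinct start regions of mitochondrial ribosomal protein genes 4 rose and 0 fell, with a median shift of 0.14. The 4 were those of MRPL28 (2.14), MRPL38 (2.05), MRPL10 (2.0) and MRPL52 (1.40), with limma adjusted p-values of 0.0132, 0.0121, 0.0132 and 0.0445, and none of these passed without DMSO 1 (0.0613 to 0.277) or by ranks of -log10 p (0.116 to 0.256). Without DMSO 2 all but MRPL10 missed the threshold (0.0603 to 0.276), as did MRPL52 without I-BET151 2 (0.0683). For MRPL28, MRPL38, MRPL10 and MRPL52 the centred pileup gave 0.19, 0.58, 0.39 and 0.28 on the log2 scale. None of the 4 passed there (limma adjusted p from 0.138 to 0.606). Of 30 regions of translation factor genes and 42 of ribosome assembly genes none passed in either direction (7 in each list at an unadjusted p under 0.05, beside 1877 of the 8720 start regions of all protein-coding genes), with median shifts of -0.25 and 0.21.

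For 14 of the 84 genes the start region was missing from at least 1 list. It was called in 3 lists for 5 genes, in 2 for 1 gene, in 1 for 5 genes and in none for 3 genes. RPL29, RPS2, RPL6 and RPL3L were each called in DMSO 1 and both I-BET151 lists but not in DMSO 2, the shortest list. RPS2, of the small subunit, had fold enrichments of 3.89, 9.32 and 9.87 in those 3 lists, and RPL29, of the large subunit, had 3.61, 7.75 and 6.81. RPL6, also of the large subunit, had 3.67, 6.02 and 6.89, and RPL3L, the paralog of RPL3 in striated muscle, had 3.72, 8.62 and 8.75 in a region 1676 bp from its gene start. RPL41, the smallest ribosomal protein, was missing from DMSO 1 and had 3.15 in DMSO 2 and 5.11 and 2.93 with I-BET151. RPL19 and RPL22 were called in I-BET151 2 alone (4.58 and 3.81), as was RPL36 (2.80). RPL7L1, a paralog of RPL7, was called in I-BET151 1 alone (3.69, a pileup of 8 reads), and RPL10L, the testis paralog of RPL10, in DMSO 1 alone (3.62, 13 reads). These values are those of the start region, and some of these genes had another region within 3 kb with more calls. That of RPL7L1, with a mean summit 500 bp from the gene start, had 4.59 in DMSO 1 and 5.91 and 9.26 with I-BET151. RPL41 and RPL22 each had one in all 4 lists (5.83 to 10.0 and 3.72 to 8.06). RPL19 had one in DMSO 1 and both I-BET151 lists.

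Regions within 3 kb of the 84 genes numbered 94. The pair of I-BET151 lists, and no DMSO list, held 2 of them, against 12.1% of the regions near any protein-coding gene start. The converse, a call in the pair of DMSO lists alone, was found at 0 of 94 (all genes 1.36%). The first was the start region of RPL7A, a large-subunit gene that hosts 4 snoRNA genes and starts within 1 kb of the opposite-strand gene MED22. It spans chr9:133347935-133348610 and had fold enrichments of 5.84 and 7.02, at pileups of 17 and 42 reads. The other, chr12:56119484-56119820, lay 3012 bp downstream of the RPL41 start by its summit, with fold enrichments of 4.66 and 6.10 at 25 and 72 reads. Such a region may hold reads below the calling threshold in the DMSO libraries, which the lists do not show.

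For 7 genes the 5′ end of the gene record and the canonical start fell on different regions or lay apart from any region. With canonical starts, 75 of 84 genes were called in all 4 lists. Of all 19970 protein-coding genes 10821 were called there, against 10368 at the start of the gene record. RPL22 stood then at places 86.2, 89.4, 88.1 and 91.6, RPL6 at 33.7, 50.2, 48.1 and 48.7, and RPL36 at 1.39, 2.97, 3.71 and 3.63, the lowest of the 3. RPL10, which joins the large subunit late in its assembly, stood at 70.3 and 65.0 with DMSO and 53.6 and 29.0 with I-BET151 (shift -0.69, limma adjusted p = 0.287). RPL3L was called in I-BET151 1 alone, and RPL39L, another paralog, had no region at either start.

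RPL4, a large-subunit gene with no region at the gene record's 5′ end, fell in place at its canonical start, within 1 kb of the start of the opposite-strand gene ZWILCH. Its fold enrichment there was 8.18 and 6.02 with DMSO and 5.24 and 8.67 with I-BET151, at pileups of 34, 29, 12 and 41 reads. The places were 90.6 and 76.8 with DMSO and 13.5 and 33.7 with I-BET151. They do not overlap, as at the 31.4% of all start regions that were lower in both I-BET151 libraries. The shift was -1.79 ± 0.41 (SE, limma adjusted p = 0.0244). It did not pass without DMSO 1 (adjusted p = 0.225), DMSO 2 (0.0548) or I-BET151 1 (0.0656), nor by ranks of -log10 p (0.116). On the scaled pileup it was 0.91, or -1.02 (adjusted p = 0.0588) after centring.

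Rank shifts were also set beside the sequence features. The median rank shift was 0.03 in the 54 called genes with a pyrimidine run and -0.04 in the 16 without, and their median places, averaged over the libraries, were 71.4 and 51.5. In the 12 with the BANP element the median shift was -0.23, against 0.05 in the other 58, and median places were 65.1 and 69.2. With the ETS core (25 genes) the median shift was 0.06 and the median place 75.8, against -0.03 and 68.4 without it. These are descriptions of overlapping sets of genes and were not tested.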

How the data were processed

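ATAC-seq of 2 DMSO and 2 I-BET151 libraries of MEL1 INS GFP/W-derived pancreatic progenitors was analysed from 4 deposited peak lists. According to the methods and labels, the authors aligned reads to hg38 with Bowtie2 2.2.5, removed duplicate and mitochondrial reads, and called peaks per library with MACS2 2.1.2. The deposited columns used were fold enrichment (a ratio of summit pileup to local background) and -log10 p; the score column and -log10 q values deposited by the authors were not used. The methods state a read extension of 200 bp and a -log10 p threshold of 5. No peak of the replicate 1 lists was under 200 bp, but the minimum was 233 and 256 bp in DMSO 2 and I-BET151 2. These 2 minima differ from the stated extension, and each list's minimum was taken as its read extension length. With peaks under the stated threshold left out, there were 24491 shared regions in place of 25627. The settings used for each list were not tested. Pileups were recovered from fold enrichment and -log10 p for 99.9% to 100% of peaks (within 0.01 in -log10 p), and read totals from the background with a genome size of 2.7 Gb.

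Peaks overlapping by 1 bp were merged into 164301 regions, and 25627 had a peak from every library. Starts came from GENCODE 44 on the same build, and promoter sequences from the hg38 genome. Ranks by fold enrichment within each list were turned into normal scores and tested with limma 3.58.1 (R 4.3.3, 2 libraries per group, Benjamini-Hochberg threshold 0.05); widths likewise. The code was tested on simulated data. Libraries with the same number showed no shared deviation (correlation -0.14), so no replicate block was used in the reported values. Genes were named where they passed a test, lacked a call in a list, had the 5 highest or lowest places or the 3 largest shifts in each direction, had a region called in 1 treatment alone, or encode the stalk, RPS27A or RPSA; the mitochondrial genes, FAU, RACK1, RPL36AL and single marker genes are named from fixed lists after their values were seen. The genes, lists and tests were chosen with earlier results of these data known. Alternatives covered thresholds, list length, overlap, start, distance, ranking, scaling, pairing and each library left out. Single results for some genes that enter the counts are not reported here.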

Additional observations from a re-analysis of the deposited data

How the results depend on the processing

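Of 84 genes, 49 to 75 were called in all 4 lists under the other settings, and 70 to 74 were called in every remaining list when 1 library was left out. The median over genes of the mean percentile in the 4 lists, 81.8, was 57.8 with a -log10 p of at least 10, 65.6 with the 38295 strongest peaks of each list and 70.0 where peaks had to cover most of the region. The 0 genes that rose became 3 at a -log10 p of at least 10, where 840 of all 13209 regions rose. They became 1 with equal lists (943 of all 18505 regions). On the pileup scaled to read totals they became 70, and 1 after centring it (184 of all 25627 regions). The 1 gene that fell became 3 with equal lists, where 725 of all 18505 regions fell, and 2 with canonical starts. It became 0 by ranks of -log10 p (27 of all 25627 regions) and 0 on the scaled pileup (14 of all 25627 regions). The median shift of 0.01 was 1.93 on the scaled pileup (log2 units), where all regions had 1.9, and -0.10 to 0.13 with 1 library left out. The 2 regions called with I-BET151 alone became 13, 12 and 1 with a -log10 p of at least 10, the coverage rule and a distance of 1 kb. They became 3 to 8 with 1 library left out (8 without DMSO 1 or I-BET151 1, 4 without I-BET151 2). Those called with DMSO alone became 0 to 2 (2 without DMSO 2). The share over all gene starts is given for the main setting alone (12.1% with I-BET151 alone). These altered counts therefore have no background beside them and show no change particular to this gene set. With the replicate block the median shift was 0.01 and RPS12 kept its call (limma adjusted p = 0.0153). There 0 genes were up and 1 down, beside 985 up and 652 down of all 25627 regions. A crossed pairing, added after the data were seen, gave 3 up and 2 down, beside 1985 up and 1567 down of all 25627 regions. The scaled pileup moved nearly all regions up (24625 of 25627), so a positive sign there was fixed by the scale and bears on no single gene; the values were those of RPS12 (1.44), RPS29 (1.83), RPL7 (2.08), RPLP0 (2.04), RPLP1 (1.45), RPLP2 (2.05) and RPS27A (2.12). After centring, signs turned for RPL7 (0.15), RPS10 (-0.15), RPLP0 (0.11), RPLP2 (0.13) and RPS27A (0.19). RPLP0 turned without DMSO 1 or I-BET151 2 (range with 1 library left out -0.214 to 0.137), and RPS27A by ranks of -log10 p (0.0221) or without DMSO 2 (range -0.254 to 0.0374). The cause was not tested.

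The lists leave out regions below the calling threshold, so a missing call is no measure of closed chromatin. The I-BET151 libraries had fewer reads than the DMSO libraries, and the lowest pileup at a shared start region of a ribosomal protein gene was 13 reads, in I-BET151 1.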
